A study of Mus musculus with 12 samples.

Results

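Of 12 RNA-seq libraries of embryonic mouse calvaria (the flat bones of the skull vault), 5 held transcripts of Cryaa, the alpha A-crystallin of the eye lens, at more than 10 CPM (read counts scaled to a fixed library total), and 7 did not. The 5 are called lens-positive here, a name for their Cryaa level and for nothing else. They were chosen by dividing the Cryaa count of a library by its total count in genes. On that scale Cryaa was at 436 CPM in Runx2+/- MS-275 replicate 3, 483 and 576 CPM in Runx2+/- vehicle replicates 1 and 2, and 670 and 620 CPM in WT vehicle replicates 1 and 2. In the other 7 it was 0.056 and 0.0649 CPM in Runx2+/- MS-275 replicates 1 and 2, 0.16, 0.715 and 0.361 CPM in the 3 WT MS-275 libraries, 6.21 CPM in Runx2+/- vehicle replicate 3 and 6.37 CPM in WT vehicle replicate 3. The libraries nearest the threshold were thus at 436 CPM inside it and 6.37 CPM outside it.

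The embryos were C57BL/6, taken at embryonic day 17.5 from WT and Runx2+/- parents mated at 8 weeks of age. The 4 labelled groups have 3 libraries each: Runx2+/- embryos with MS-275, WT embryos with MS-275, Runx2+/- embryos with vehicle and WT embryos with vehicle. Dams of the MS-275 groups received 2 intraperitoneal doses of 10 mg/kg, on days 14.5 and 16.5 post coitum. MS-275, or entinostat, inhibits class I histone deacetylases. Runx2 is the transcription factor that starts bone cell differentiation, and the labels do not say which part of the gene the mutant allele lacks, what the vehicle was, or whether replicates were separate embryos or litters. Split by treatment, 4 lens-positive libraries stood beside 2 others among vehicle libraries, and 1 beside 5 among MS-275 libraries.

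Crystallins are the refractive proteins that fill the fibre cells of the lens, and the beta- and gamma-crystallins are found in few other tissues in mammals. The skull vault holds bone, cartilage, sutures, dura and blood, but no lens, while skin, eye, brain, nose and tooth germs lie next to it in an embryonic head. Transcripts that mark those neighbours are described below beside the lens signal. In bulk RNA, fewer cells of a type and less RNA per cell cannot be told apart. Because a measured value defined the 2 sets, differences between them are descriptions, with no p-value.

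Counts in genes were 13307456 to 19044500 in the lens-positive libraries and 15405004 to 19399760 in the other 7. Between 23343 and 24666 genes had a count in the lens-positive libraries, against 20008 to 23112 in the others, and of uniquely aligned reads, those in no gene were 14.2% to 22.2% in the lens-positive libraries and 5.21% to 14.1% in the others. Mitochondrial genes took 4.32% to 9.48% of counts in the lens-positive libraries and 4.38% to 24.2% in the others. The part of depth, unassigned reads and mitochondrial share in the results below was not tested. Levels from here on are CPM after TMM scaling (trimmed mean of M values), whose factors were 1.18 to 1.33 in all vehicle libraries and Runx2+/- MS-275 replicate 3 and 0.598 to 0.820 in the other 5 MS-275 libraries. Scaled by total count alone, the median log2 difference between the sets over all genes was 0.45, in place of 0.02 with TMM, and of the list medians given below the Schwann cell one changed sign, at 0.44 in place of -0.05. Runx2+/- MS-275 replicate 3 stood apart from the other MS-275 libraries in more than the lens: its osteoblast and bone matrix genes summed to 3702 CPM, against 41050.0 to 83048 CPM in the 5 other MS-275 libraries and 8537 to 22442 CPM in the 6 vehicle libraries. Its lens, skin and bone levels lay nearer to those of most vehicle libraries than to those of the other MS-275 libraries. It is kept under its label, whose correctness was not tested, and every comparison that uses treatment, the drug term included, rests on that label. It is the single lens-positive MS-275 library, so values among the vehicle libraries alone are given for most lists below. Among vehicle libraries, replicates 1 and 2 of both genotypes are lens-positive and replicate 3 of both is not, so there the Cryaa grouping and the replicate number cannot be told apart. Runx2 itself stood at 34.1 CPM in Runx2+/- MS-275 replicate 3, 65.2 and 32.7 CPM in Runx2+/- vehicle replicates 1 and 2, and 45.4 and 42.4 CPM in WT vehicle replicates 1 and 2. The 7 other libraries held 46.1 to 131 CPM (median 88.1).

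Most crystallins were abundant in the lens-positive libraries and at or below a few CPM in the rest, apart from Cryab. Cryaa itself was used to form the sets, so it is left out of the counts here. Of 14 other crystallin genes listed, 13 passed the filter on low counts and 12 were higher by the rule used throughout, a fitted log2 difference above 1, adjusted for treatment, with no overlap among vehicle libraries or among MS-275 libraries. Over all 17967 genes tested, 2598 (14.5%) were higher by that rule and 1428 (7.95%) lower, and the median log2 difference was 0.02 over all genes and 7.53 over the 13 crystallins (7.03 among vehicle libraries alone). Without Cryaa and Cryab, the crystallins summed to 642 CPM in Runx2+/- MS-275 replicate 3, 818 and 980.0 CPM in Runx2+/- vehicle replicates 1 and 2, and 1127 and 1062 CPM in WT vehicle replicates 1 and 2. The same sum was 13.5 CPM in Runx2+/- vehicle replicate 3, 5.68 CPM in WT vehicle replicate 3 and 3.97 to 6.55 CPM in the 5 other MS-275 libraries, so the sets did not overlap within either treatment. The lens makes these genes together with Cryaa, so they are not independent of the rule. A gene scarce outside the lens-positive libraries, here or in later lists, could pass the filter only through those libraries. Counts of higher genes among those tested are thus partly fixed by the filter.

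Cryba1, a beta-crystallin, was at 294 CPM in Runx2+/- MS-275 replicate 3, 228 and 304 CPM in Runx2+/- vehicle replicates 1 and 2, and 333 and 293 CPM in WT vehicle replicates 1 and 2. Its range was 0 to 3.46 CPM (median 0.195) in the 7 other libraries. Its difference was 8.34 (SE 0.66) on the log2 scale. Crybb1, which marks differentiating fibre cells, was at 39.7 CPM in Runx2+/- MS-275 replicate 3, 99.6 and 109 CPM in Runx2+/- vehicle replicates 1 and 2, and 138 and 132 CPM in WT vehicle replicates 1 and 2. In the 7 others it was at 0.928 to 2.49 CPM (median 1.39). Runx2+/- MS-275 replicate 3 held the lowest Crybb1 level of the lens-positive libraries, yet its Cryba1 level lay among theirs. The gamma-crystallin Cryge was at 35.7 CPM in Runx2+/- MS-275 replicate 3, 86.8 and 104 CPM in Runx2+/- vehicle replicates 1 and 2, and 119.6 and 111 CPM in WT vehicle replicates 1 and 2. Elsewhere it stood at 0 to 0.560 CPM (median 0.0818) in the 7 others, and the log2 difference was 8.68 (SE 0.42). Cryga to Crygf are close copies of each other whose reads the counting could split, so the level of any single one is uncertain. Cryab, the alpha B-crystallin that muscle and other tissues also make, was the crystallin that did not separate the sets, with 51.7 to 67.6 CPM in the lens-positive libraries and 43.4 to 118 CPM in the others. Crybb2, which did not pass the filter, stood at 0.0435 to 0.691 CPM in the lens-positive libraries and had no count in any of the other 7 libraries.

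Several genes of the lens fibre membrane and cytoskeleton were likewise higher. Mip, the water channel aquaporin 0 of lens fibres, was at 8.26 CPM in Runx2+/- MS-275 replicate 3, 9.84 and 13.3 CPM in Runx2+/- vehicle replicates 1 and 2, and 15.9 and 14.3 CPM in WT vehicle replicates 1 and 2. Levels were 0 to 0.164 CPM (median 0.0928) in the 7 other libraries. Bfsp2, which encodes the beaded filament protein phakinin, was at 9.18 to 14.1 CPM in the lens-positive libraries, against 0.0650 to 1.07 CPM in the other 7. Of 18 listed fibre genes and regulators, 13 passed the filter, 7 were higher and 1 was lower (median log2 difference 1.07, and 1.145 among vehicle libraries alone). The list's sum did not separate the sets. It was 192 to 222 CPM in the lens-positive vehicle libraries, against 178 to 205 CPM in the other vehicle libraries. With MS-275 it was 144 CPM in Runx2+/- MS-275 replicate 3, against 165 to 215 CPM in the other MS-275 libraries. Among the higher genes were Mip, Gja3, Bfsp1, Bfsp2, Grifin (a lens galectin) and Sox1, a transcription factor of lens and brain. The lower was Maf, a transcription factor of lens fibres that macrophages and cartilage also use, with 41.4 to 76.4 CPM in the lens-positive libraries, against 120.4 to 175 CPM in the others. Lim2, Lgsn, Birc7, Foxe3 and Lenep did not pass the filter. Foxe3, a factor of the lens epithelium, was at 0.130 to 0.387 CPM in the lens-positive libraries, against 0 to 0.0797 CPM in the other 7, near the 0.120 to 0.278 CPM that 3 counts amount to in a library.

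**Figure D1:**
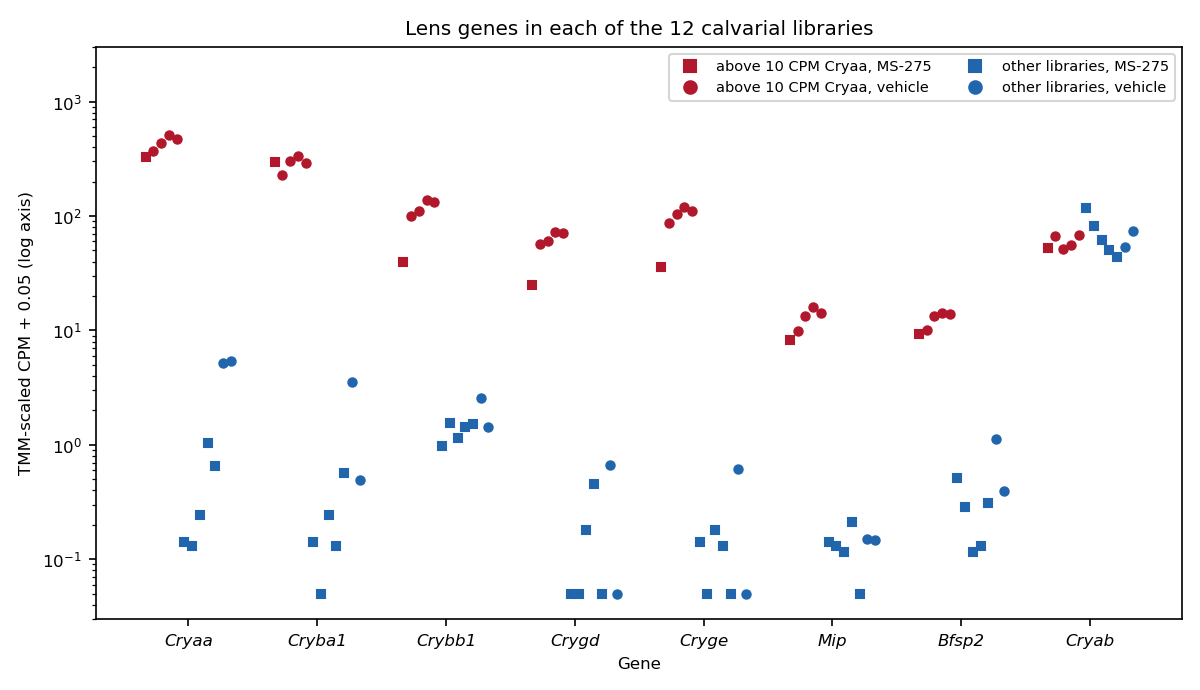
TMM-scaled CPM of 8 lens genes in each library, with 0.05 CPM added for the log axis. Red points are the 5 lens-positive libraries and blue points the 7 others, squares are MS-275 and circles vehicle. The colours are apart for 7 genes and mixed for Cryab, at 51.7 to 67.6 CPM in the lens-positive libraries, against 43.4 to 118 CPM in the others.

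The promoters of 3 crystallin genes that separate the sets are shown because they share a short element, TGCTGAC, the core of the site that Maf factors bind in lens promoters. Each line gives the 250 bases before the transcription start, 5′ to 3′, from the RefSeq promoter table (build GRCm38.p6), with the element in capitals. Cryaa is chr17:31677681-31677930, plus strand, Cryba1 is chr11:77725294-77725543, minus strand and Crybb1 is chr5:112255570-112255819, plus strand.
Cryaa: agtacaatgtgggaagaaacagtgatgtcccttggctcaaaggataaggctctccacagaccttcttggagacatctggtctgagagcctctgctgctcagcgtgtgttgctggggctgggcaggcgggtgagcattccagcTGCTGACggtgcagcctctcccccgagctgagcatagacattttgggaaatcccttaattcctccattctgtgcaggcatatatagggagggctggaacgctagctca
Cryba1: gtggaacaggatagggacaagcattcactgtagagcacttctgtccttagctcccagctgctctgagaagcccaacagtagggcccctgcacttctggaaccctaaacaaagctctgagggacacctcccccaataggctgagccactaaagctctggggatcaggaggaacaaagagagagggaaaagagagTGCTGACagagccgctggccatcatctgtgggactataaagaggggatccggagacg
Crybb1: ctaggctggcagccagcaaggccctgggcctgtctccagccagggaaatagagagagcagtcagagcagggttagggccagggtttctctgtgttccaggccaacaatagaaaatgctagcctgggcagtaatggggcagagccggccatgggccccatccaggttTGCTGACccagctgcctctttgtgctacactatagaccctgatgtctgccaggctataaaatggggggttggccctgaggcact
The element began 108 bases before the Cryaa start, 57 before that of Cryba1 and 84 before that of Crybb1. On either strand, TGCTGAC or its reverse complement GTCAGCA was present in 4 of the 19 windows of higher lens genes other than Cryaa (21.1%) and in 1252 of all 32851 windows (3.81%). Cryba4 and Cryga hold the others with the element. A match of letters is a description of these windows, not a binding site.

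Brain transcripts followed the lens signal in all 5 libraries. Of 17 forebrain neuron and progenitor genes, all tested, 16 were higher and none lower (median log2 difference 3.85, and 3.83 among vehicle libraries alone), and 16 were also higher among vehicle libraries alone, where 14.1% of all genes were. Summed, the list was at 303 to 771 CPM in the 4 lens-positive vehicle libraries, against 59.4 CPM in Runx2+/- vehicle replicate 3 and 48.1 CPM in WT vehicle replicate 3. Among MS-275 libraries the sum was 656 CPM in Runx2+/- MS-275 replicate 3, against 6.14 to 88.3 CPM in the 5 other MS-275 libraries. Runx2+/- vehicle replicate 1 was the lowest of the lens-positive libraries at 303 CPM, still above the 88.3 CPM of WT MS-275 replicate 3, the highest of the others. Neurod6, a factor of cortical pyramidal neurons, was at 173 CPM in Runx2+/- MS-275 replicate 3, 37.0 and 146 CPM in Runx2+/- vehicle replicates 1 and 2, and 133 and 169.6 CPM in WT vehicle replicates 1 and 2. The 7 other libraries held 0.239 to 10.7 CPM (median 0.445). Within the lens-positive libraries Neurod6 was lowest in Runx2+/- vehicle replicate 1, as the sum of the list was.

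Genes of both excitatory and inhibitory neurons were higher. Tbr1, a factor of deep-layer cortical neurons, was at 31.5 to 81.6 CPM in the lens-positive libraries, against 0.409 to 10.6 CPM in the other 7. Gad1, which makes the inhibitory transmitter GABA, was at 24.8 to 65.2 CPM in the lens-positive libraries, against 0.186 to 9.31 CPM in the others. Slc17a7, a vesicular glutamate transporter, was the exception in the list, because WT MS-275 replicate 3, at 11.4 CPM, lay above the 7.83 CPM of Runx2+/- MS-275 replicate 3. WT MS-275 replicate 3 was also the highest of the other 7 in Tbr1 (10.6 CPM), Neurod6 (10.7 CPM) and Eomes (8.53 CPM), a factor of cortical progenitors. Its Cryaa level on the same scale was 0.603 CPM, so some cortical transcripts were present there at a Cryaa level far below 10 CPM.

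General neuronal genes gave the same picture. Of 16 cytoskeleton and synapse genes, 15 were higher, Nefl being the exception, with a median log2 difference of 2.90 (3.04 among vehicle libraries alone). Together they reached 1927 to 4449.6 CPM in the 4 lens-positive vehicle libraries, against 637 CPM in Runx2+/- vehicle replicate 3 and 295 CPM in WT vehicle replicate 3. Among MS-275 libraries the sum was 2536 CPM in Runx2+/- MS-275 replicate 3, against 122 to 753 CPM in the 5 other MS-275 libraries. Dcx, a microtubule protein of migrating neurons, was at 323 to 812 CPM in the lens-positive libraries, against 6.63 to 90.7 CPM in the other 7. Tubb3, the neuronal tubulin, was at 209 to 491 CPM in the lens-positive libraries, against 4.42 to 70.9 CPM in the others. In the list of radial glia, astrocytes and oligodendrocytes 8 of 13 genes were higher (median 1.61, and 1.70 among vehicle libraries alone). Aqp4, the astrocyte water channel, was at 19.7 to 35.8 CPM in the lens-positive libraries, against 0 to 7.23 CPM in the other 7. Olig2, a factor of oligodendrocyte precursors, was at 4.22 to 9.08 CPM in the lens-positive libraries, against 0 to 4.22 CPM in the others. Fabp7, a fatty acid carrier of radial glia, overlapped, since WT MS-275 replicate 3 had 254 CPM, more than any lens-positive library (102 to 207 CPM). Of 10 midbrain and hindbrain genes, 6 passed the filter and 2 were higher, Barhl1 and Tlx3, both below 3 CPM in every library.

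Retina genes did not follow the lens in every library. The neural retina list summed to 129.8 to 202 CPM in the 4 lens-positive vehicle libraries, against 153 CPM in Runx2+/- vehicle replicate 3 and 22.0 CPM in WT vehicle replicate 3. With MS-275 the sum was 178 CPM in Runx2+/- MS-275 replicate 3, against 3.68 to 35.4 CPM in the 5 other MS-275 libraries. Runx2+/- vehicle replicate 3, with a Cryaa level of 5.09 CPM, thus lay within the range of the lens-positive libraries for retina. Crx, the photoreceptor factor, was at 3.05 to 6.04 CPM in the lens-positive libraries, 7.33 CPM in Runx2+/- vehicle replicate 3, 3.53 CPM in Runx2+/- MS-275 replicate 1, 1.30 CPM in WT MS-275 replicate 1 and at most 0.0494 CPM in the rest. Of 19 listed retina genes 15 passed the filter and 3 were higher, Six3, Lhx2 and Isl1, all of which forebrain or other neurons also use. Over all genes, 14.5% were higher. The retina median log2 difference was 1.67, and 0.34 among vehicle libraries alone, where 14 of the genes were fitted. The photoreceptor genes Nrl, Prph2, Rcvrn and Aipl1 did not pass it.

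Pigment genes showed a smaller gap among vehicle libraries. The list reached 98.0 to 111 CPM in the 4 lens-positive vehicle libraries, against 73.6 CPM in Runx2+/- vehicle replicate 3 and 89.2 CPM in WT vehicle replicate 3. In MS-275 libraries the total was 107 CPM in Runx2+/- MS-275 replicate 3, against 25.1 to 42.5 CPM in the 5 other MS-275 libraries. Pmel, the melanosome fibre protein, was at 27.1 to 34.7 CPM in the lens-positive libraries, 9.52 CPM in Runx2+/- vehicle replicate 3, 14.3 CPM in WT vehicle replicate 3 and 1.21 to 7.73 CPM in the 5 other MS-275 libraries. Rlbp1, a retinaldehyde carrier of the retina, was at 6.24 to 17.9 CPM in the lens-positive libraries, against 1.23 to 5.29 CPM in the other 7. Of 12 genes tested 4 were higher, beside 14.5% of all genes, with Tyr and Tyrp1 of melanin synthesis as the others, and Rpe65 and Rgr did not pass the filter. Among vehicle libraries alone 3 were higher and 1 lower, where 14.1% and 5.43% of all genes were. The list's median log2 difference was 1.16, and 0.21 among vehicle libraries alone. Dct, also of melanin synthesis, was at 21.4 to 25.6 CPM in the lens-positive libraries, against 26.4 CPM in Runx2+/- vehicle replicate 3, 36.1 CPM in WT vehicle replicate 3 and 0.0862 to 7.81 CPM in the 5 other MS-275 libraries, so replicate 3 of both vehicle groups lay above all 5. Among 8 cornea and anterior segment genes, Krt12, the corneal keratin, was higher at 1.38 to 2.13 CPM in the lens-positive libraries, against 0 to 0.395 CPM in the others, as was Myoc. Foxc1 and Col8a2, which skull mesenchyme also expresses, were lower. Over all genes, 14.5% were higher and 7.95% lower. The cornea list's sum was 159 to 251 CPM in the lens-positive vehicle libraries, against 234 to 292 CPM in the other vehicle libraries. With MS-275 it was 119 CPM in Runx2+/- MS-275 replicate 3, against 423 to 509 CPM in the other MS-275 libraries.

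Nasal and oral epithelia were the next tissues to separate the sets. Of 8 olfactory and nasal genes 6 passed the filter, and 5 of those were higher (median log2 difference 2.68, and 1.95 among vehicle libraries alone). The odorant binding proteins Obp1a and Obp2a did not pass. The list's sum was 196 to 277 CPM in the 4 lens-positive vehicle libraries, against 46.3 CPM in Runx2+/- vehicle replicate 3 and 31.7 CPM in WT vehicle replicate 3. The MS-275 libraries had 165 CPM in Runx2+/- MS-275 replicate 3, against 1.06 to 4.46 CPM in the 5 other MS-275 libraries. Bpifa1, a secreted protein of the airway surface, was at 137 CPM in Runx2+/- MS-275 replicate 3, 217 and 183 CPM in Runx2+/- vehicle replicates 1 and 2, and 149 and 168 CPM in WT vehicle replicates 1 and 2. Outside the lens-positive set it was at 26.7 CPM in Runx2+/- vehicle replicate 3, 28.1 CPM in WT vehicle replicate 3 and 0 to 0.491 CPM in the 5 other MS-275 libraries. Olfactory marker protein, Omp, was at 8.78 to 15.8 CPM in the lens-positive libraries, against 0.0650 to 6.36 CPM in the other 7, and Foxj1, which drives motile cilia, at 10.0 to 29.5 CPM in the lens-positive libraries, against 0.0818 to 7.02 CPM in the others.

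Tooth and oral genes were higher in 7 of 10 tested (median 4.75, and 4.94 among vehicle libraries alone), with sums of 288 to 821 CPM in the 4 lens-positive vehicle libraries, against 79.1 CPM in Runx2+/- vehicle replicate 3 and 166 CPM in WT vehicle replicate 3. Among MS-275 libraries the sum was 518 CPM in Runx2+/- MS-275 replicate 3, against 30.4 to 63.1 CPM in the 5 other MS-275 libraries. Krt13, a keratin of the lining of the mouth, was at 356 CPM in Runx2+/- MS-275 replicate 3, 514 and 183 CPM in Runx2+/- vehicle replicates 1 and 2, and 241 and 353 CPM in WT vehicle replicates 1 and 2. Outside these 5 it was at 61.0 CPM in Runx2+/- vehicle replicate 3, 139 CPM in WT vehicle replicate 3 and 0.319 to 1.38 CPM in the 5 other MS-275 libraries. Amelx, the main enamel matrix protein, was at 0.696 CPM in Runx2+/- MS-275 replicate 3, 12.0 and 0.0430 CPM in Runx2+/- vehicle replicates 1 and 2, and 2.59 and 6.17 CPM in WT vehicle replicates 1 and 2, with counts in 1 of the 7 others, at 0.0928 CPM. Enamel genes varied far more among the lens-positive libraries than oral keratins did. Runx2+/- vehicle replicate 2 had 0.0430 CPM of Amelx, 0.0860 CPM of Enam and none of Dspp, the dentin protein, which stood at 1.17 to 9.29 CPM in the other 4. Amelx and Enam are among the 7 higher genes, yet in that library both lay below the 0.120 to 0.278 CPM of 3 counts. Their calls thus rest there on fewer than 3 counts, and enamel transcripts were not clearly present in all 5 lens-positive libraries. Ambn, an enamel protein, went the other way among MS-275 libraries, with 4.00 CPM in Runx2+/- MS-275 replicate 3, against 22.9 to 55.1 CPM in the 5 other MS-275 libraries. Amtn and Dcpp1 did not pass the filter.

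Skin did not follow the lens among vehicle libraries. Epidermal genes summed to 1781 to 5033 CPM in the 4 lens-positive vehicle libraries, against 1591 CPM in Runx2+/- vehicle replicate 3 and 3791 CPM in WT vehicle replicate 3, so that vehicle libraries overlapped. With MS-275 the sum was 2439 CPM in Runx2+/- MS-275 replicate 3, against 41.2 to 53.1 CPM in the 5 other MS-275 libraries. Krt1, a keratin of the upper epidermis, was at 566 CPM in Runx2+/- MS-275 replicate 3, 941 and 756 CPM in Runx2+/- vehicle replicates 1 and 2, and 1612 and 415 CPM in WT vehicle replicates 1 and 2. The 7 other libraries ranged widely, with 281 CPM in Runx2+/- vehicle replicate 3, 803 CPM in WT vehicle replicate 3 and 0.186 to 1.98 CPM in the 5 other MS-275 libraries. Krt5, of the basal layer, was at 177 to 392 CPM in the lens-positive libraries, against 137 CPM in Runx2+/- vehicle replicate 3, 436 CPM in WT vehicle replicate 3 and 0.186 to 2.21 CPM in the 5 other MS-275 libraries. None of the 19 tested genes separated the sets within both treatments. Their median log2 difference of 2.65, adjusted for treatment, was 0.066 among vehicle libraries alone. Hair follicle genes did separate them, 6 of 10 being higher (median 2.51), and 4 of 10 among vehicle libraries alone (median 1.06). They summed to 28.2 to 65.0 CPM in the 4 lens-positive vehicle libraries, against 8.04 CPM in Runx2+/- vehicle replicate 3 and 19.0 CPM in WT vehicle replicate 3. In MS-275 libraries the total was 74.0 CPM in Runx2+/- MS-275 replicate 3, against 1.90 to 2.47 CPM in the 5 other MS-275 libraries. Krt71, a keratin of the inner root sheath, was at 7.09 to 20.0 CPM in the lens-positive libraries, against 0.153 CPM in Runx2+/- vehicle replicate 3, 1.19 CPM in WT vehicle replicate 3 and 0 to 0.0818 CPM in the 5 other MS-275 libraries. Flg of the epidermis and Krt85 of hair were not found by symbol.

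**Figure D2:**
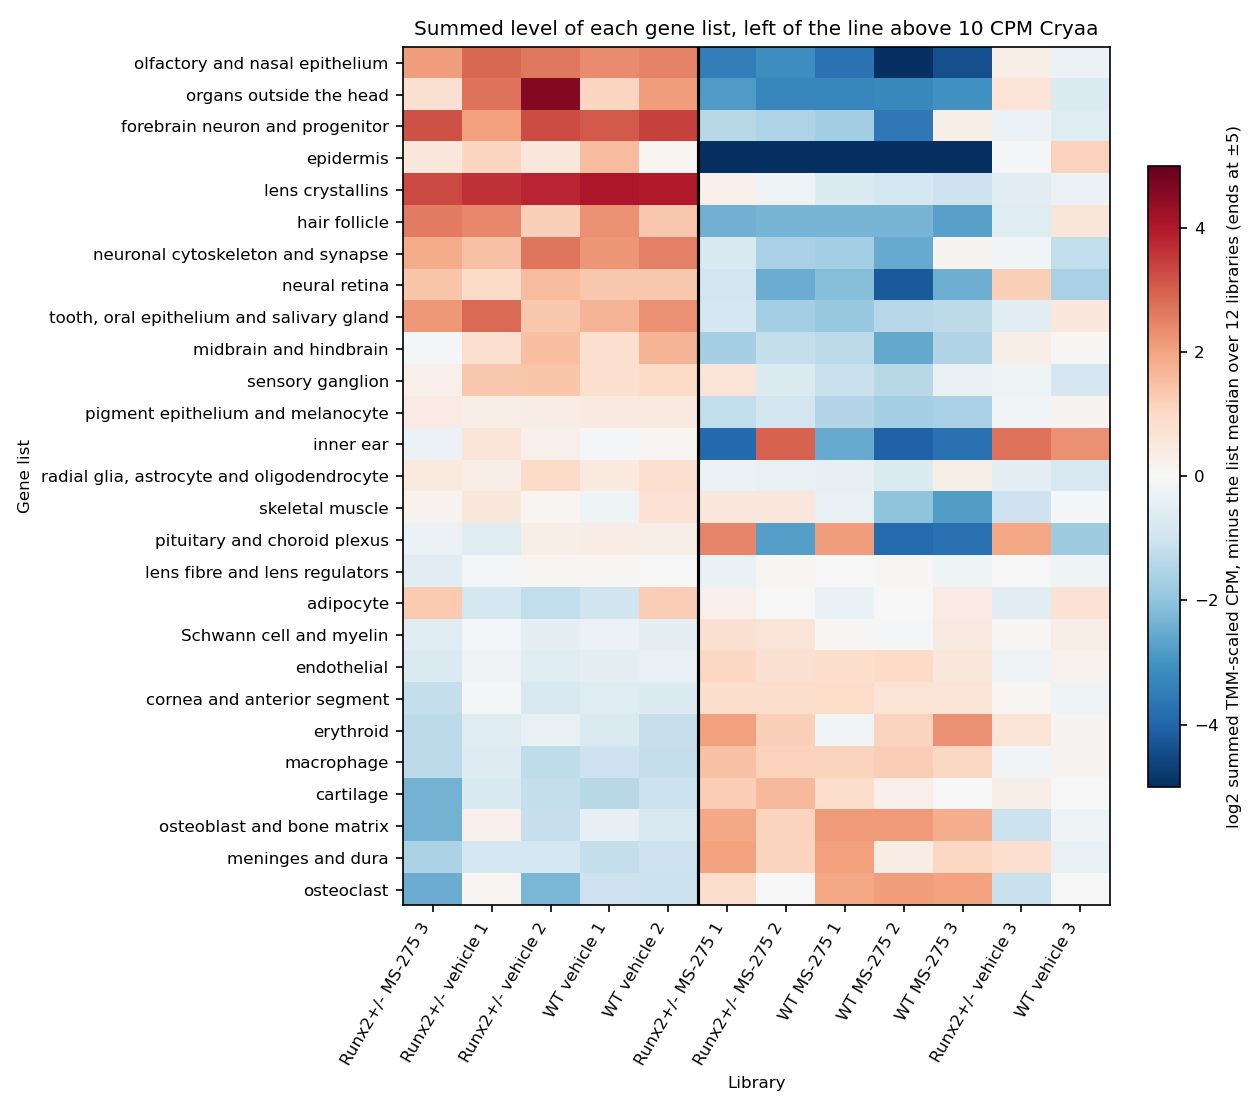
Summed TMM-scaled CPM of each gene list in each library, as log2 minus the list's median over the 12 libraries, with the colour scale ending at 5 either way. The 5 lens-positive libraries are left of the line. Forebrain, nasal and crystallin rows are red in all 5, epidermis is blue in the 5 other MS-275 libraries at 41.2 to 53.1 CPM, and the inner ear row is red in 3 of the 7.

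Inner ear transcripts were arranged differently from the lens. The 10 listed genes summed to 73.0 to 122 CPM in the 4 lens-positive vehicle libraries, against 506 CPM in Runx2+/- vehicle replicate 3 and 375 CPM in WT vehicle replicate 3. Among MS-275 libraries the sum was 63.8 CPM in Runx2+/- MS-275 replicate 3, against 598 CPM in Runx2+/- MS-275 replicate 2 and 4.66 to 13.4 CPM in the remaining 4. The libraries fell on separate levels, with 3 of the other 7 at the top, the 5 lens-positive ones between, and 4 MS-275 libraries at the bottom. Oc90, the main protein of the otoconia that weight the balance organs, was at 34.8 CPM in Runx2+/- MS-275 replicate 3, 71.1 and 52.8 CPM in Runx2+/- vehicle replicates 1 and 2, and 38.1 and 43.0 CPM in WT vehicle replicates 1 and 2. It reached 501 CPM in Runx2+/- MS-275 replicate 2, 356 CPM in Runx2+/- vehicle replicate 3, 249 CPM in WT vehicle replicate 3 and at most 10.2 CPM in the others. Tecta, of the membrane that covers the hair cells, was at 3.74 to 15.1 CPM in the lens-positive libraries, 55.4 CPM in Runx2+/- vehicle replicate 3, 56.5 CPM in WT vehicle replicate 3 and 6.06 CPM in Runx2+/- MS-275 replicate 2. No listed gene was called in either direction by the rule for both treatments. Among vehicle libraries alone 6 of the 10 were lower in the lens-positive libraries, where 5.43% of all genes were.

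Choroid plexus and pituitary genes were not tied to the lens either. Ttr, the transthyretin secreted by the choroid plexus, was at 103 CPM in Runx2+/- MS-275 replicate 3, 8.46 and 148 CPM in Runx2+/- vehicle replicates 1 and 2, and 159 and 155 CPM in WT vehicle replicates 1 and 2. It reached 902 CPM in Runx2+/- MS-275 replicate 1, 687 CPM in WT MS-275 replicate 1, 601 CPM in Runx2+/- vehicle replicate 3 and at most 10.2 CPM in the other 4. Its level in Runx2+/- vehicle replicate 1, which had the fewest forebrain transcripts of the lens-positive libraries, was the lowest of the 5. Gh, growth hormone of the pituitary, was at 9.96 CPM in Runx2+/- MS-275 replicate 3, 44.6 and 7.62 CPM in Runx2+/- vehicle replicates 1 and 2, and 12.2 and 9.91 CPM in WT vehicle replicates 1 and 2. It was at 21.0 CPM in WT vehicle replicate 3 and at most 0.102 CPM in the others. Of 13 listed genes 11 passed the filter and none separated the sets.

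**Figure D3:**
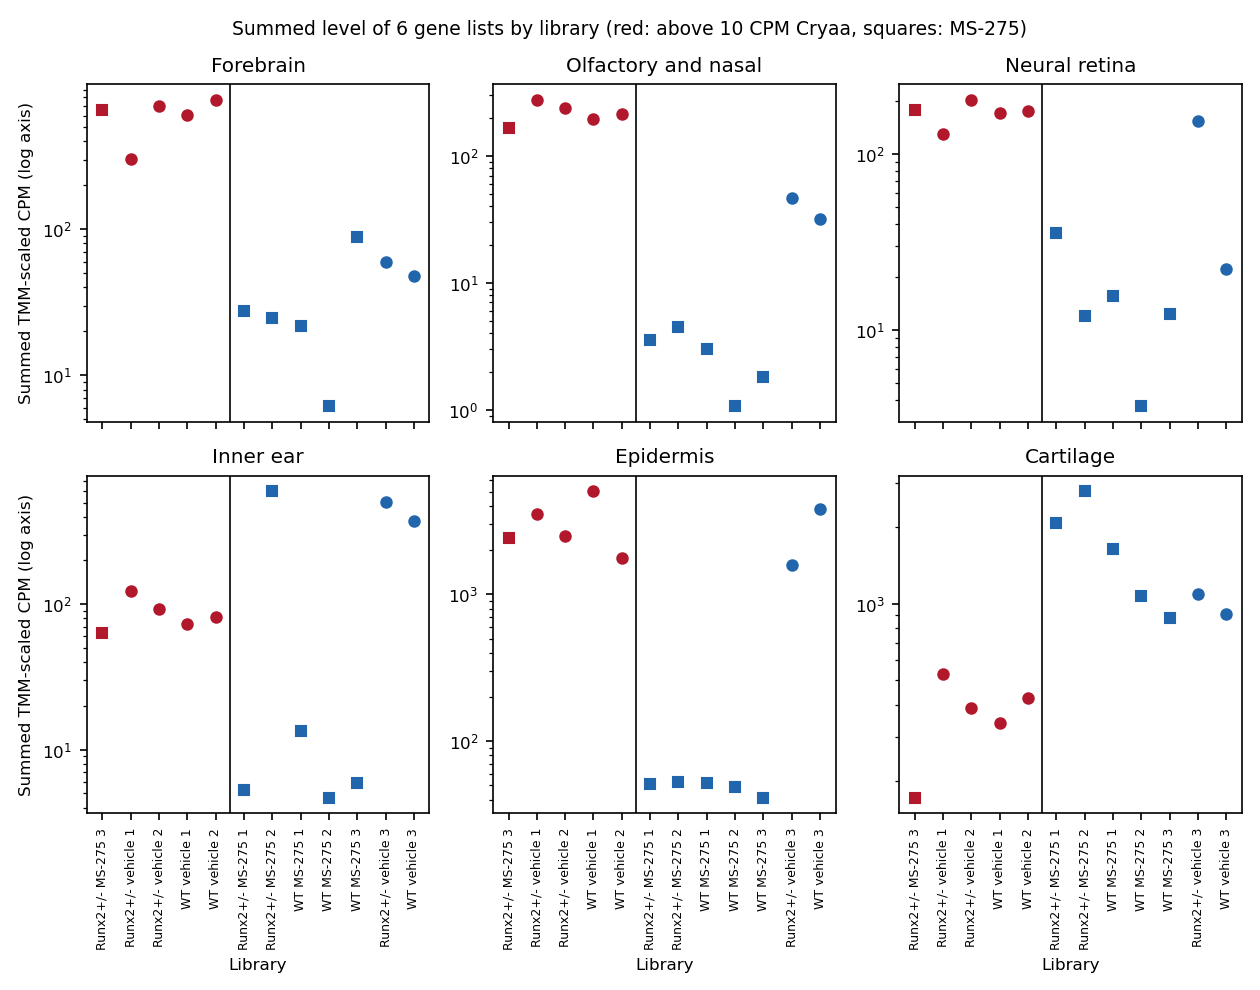
Summed TMM-scaled CPM of 6 gene lists by library on log axes, red for the 5 lens-positive libraries and blue for the 7 others, squares for MS-275. Forebrain and nasal sums are apart, retina overlaps through Runx2+/- vehicle replicate 3 at 153 CPM, inner ear is highest in 3 of the 7 others, epidermis overlaps among vehicle libraries, and cartilage is lower in all 5.

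Some transcripts of organs outside the head came with the lens as well. Alb, the serum albumin made by the liver, was at 29.1 CPM in Runx2+/- MS-275 replicate 3, 122 and 471 CPM in Runx2+/- vehicle replicates 1 and 2, and 35.1 and 75.4 CPM in WT vehicle replicates 1 and 2. For the 7 others the values were 25.6 CPM in Runx2+/- vehicle replicate 3, 8.25 CPM in WT vehicle replicate 3 and 0 to 1.03 CPM in the 5 other MS-275 libraries. Afp, the fetal liver and yolk sac protein, was at 11.5 CPM in Runx2+/- MS-275 replicate 3, 48.3 and 179 CPM in Runx2+/- vehicle replicates 1 and 2, and 16.5 and 32.6 CPM in WT vehicle replicates 1 and 2, and its ratio to Alb stayed at 0.380 to 0.470 in all 5. Sftpc, a surfactant protein of lung, was at 2.24 to 3.60 CPM in the lens-positive libraries, against 0 to 0.153 CPM in the other 7. Of 15 such genes 6 passed the filter and 4 were higher, the remaining one being Myh6 of heart muscle at 1.75 to 2.54 CPM in the lens-positive libraries, against 0.431 to 1.86 CPM in the others. Skeletal muscle genes were also higher in 5 of 17 tested, and which muscle the Myh6 reads came from was not tested. Kidney, gut and pancreas genes (Umod, Slc34a1, Vil1, Ins2 and Pdx1) and Sftpb, Sftpa1, Scgb1a1 and Nppa did not pass the filter, and Umod had no count in any library.

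Sensory ganglion genes separated the vehicle libraries, with sums of 135 to 205 CPM in the 4 lens-positive vehicle libraries, against 65.9 CPM in Runx2+/- vehicle replicate 3 and 43.6 CPM in WT vehicle replicate 3, but not the MS-275 libraries, at 92.3 CPM in Runx2+/- MS-275 replicate 3, against 30.1 to 121 CPM in the 5 other MS-275 libraries. Scn9a, a sodium channel of pain-sensing neurons, was the 1 of 11 that was higher within both treatments, at 38.7 to 63.6 CPM in the lens-positive libraries, against 0.491 to 16.9 CPM in the other 7, while 7 were higher among vehicle libraries alone. Over all genes, 14.5% were higher within both treatments and 14.1% among vehicle libraries alone. Calca, which encodes calcitonin and its related peptide, was lower, at 2.30 to 4.09 CPM in the lens-positive libraries, against 12.7 to 33.7 CPM in the others. Skeletal muscle genes were higher in 5 of 17 tested (median 0.60, 0.47 among vehicle libraries alone and 0.94 without WT vehicle replicate 3). Myh8, the perinatal myosin, was at 700.1 to 1613 CPM in the lens-positive libraries, against 45.2 to 674 CPM in the other 7, and Acta1, the muscle actin, overlapped at 330.0 to 1198 CPM in the lens-positive libraries, against 25.4 to 987 CPM in the others. Tnnc2 did not pass the filter. In the Schwann cell and myelin list none of 12 was higher, Pmp22 was lower, and the median was -0.05. That median was -0.24 among vehicle libraries alone. Over all genes, 7.95% were lower. Fat cell genes were high in 3 libraries of both sets. Adipoq, a hormone of adipocytes, was at 31.7 CPM in Runx2+/- MS-275 replicate 3, 20.5 CPM in WT vehicle replicate 2 and 16.8 CPM in WT vehicle replicate 3, and at most 0.731 CPM in the other 9 libraries. None of the 10 tested fat cell genes separated the sets, and Lep and Retn did not pass the filter.

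Cartilage and meningeal genes were lower in the lens-positive libraries. Cartilage genes summed to 338 to 528 CPM in the 4 lens-positive vehicle libraries, against 1092 CPM in Runx2+/- vehicle replicate 3 and 914 CPM in WT vehicle replicate 3. The MS-275 libraries had 172 CPM in Runx2+/- MS-275 replicate 3, against 876 to 2770.2 CPM in the 5 other MS-275 libraries. Of 12 tested, 9 were lower with none higher (median log2 difference -1.86, and -1.01 among vehicle libraries alone). Col2a1, the main collagen of cartilage, was at 82.2 CPM in Runx2+/- MS-275 replicate 3, 263 and 177 CPM in Runx2+/- vehicle replicates 1 and 2, and 154 and 207 CPM in WT vehicle replicates 1 and 2. Its range was 115 to 812 CPM (median 487) in the 7 other libraries. Its ranges overlapped over all 12 libraries, because WT MS-275 replicate 3 had 115 CPM, but not within a treatment. Col9a1, another cartilage collagen, was at 30.6 to 88.3 CPM in the lens-positive libraries, against 166 to 673 CPM in the other 7. The meninges and dura list held 9 of 12 lower genes (median -1.44, and -1.20 among vehicle libraries alone), with sums of 243 to 295 CPM in the 4 lens-positive vehicle libraries, against 982 CPM in Runx2+/- vehicle replicate 3 and 426 CPM in WT vehicle replicate 3. Among MS-275 libraries the sum was 184 CPM in Runx2+/- MS-275 replicate 3, against 705 to 2249 CPM in the 5 other MS-275 libraries. Foxc2, a factor of the mesenchyme that forms skull and meninges, was at 4.48 CPM in Runx2+/- MS-275 replicate 3, 9.56 and 9.16 CPM in Runx2+/- vehicle replicates 1 and 2, and 6.81 and 7.78 CPM in WT vehicle replicates 1 and 2. In the 7 others it was at 28.6 to 49.5 CPM (median 35.8), and the log2 difference was -2.52 (SE 0.23). Ptgds, a prostaglandin synthase of the meninges, was at 64.2 to 135 CPM in the lens-positive libraries, against 183 to 1727 CPM in the others.

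Macrophage genes were lower in 7 of 9 (median -1.76, and -1.17 among vehicle libraries alone), at 166 to 251 CPM in the 4 lens-positive vehicle libraries, against 362 CPM in Runx2+/- vehicle replicate 3 and 432 CPM in WT vehicle replicate 3. With MS-275 the sum was 161 CPM in Runx2+/- MS-275 replicate 3, against 816 to 1090.5 CPM in the 5 other MS-275 libraries. Mrc1, the mannose receptor of tissue macrophages, was at 50.3 to 78.8 CPM in the lens-positive libraries, against 137 to 587 CPM in the other 7. C1qb, a complement subunit they make, was at 15.4 to 24.9 CPM in the lens-positive libraries, against 37.9 to 127 CPM in the others. Of 10 erythroid genes 4 were lower, all of them globins, and 1, the red cell anion exchanger Slc4a1, was higher at 10.9 to 47.9 CPM in the lens-positive libraries, against 4.23 to 17.6 CPM in the other 7. The globin genes are near-identical in pairs, and the counting could split their reads. Hbb-bs, an adult beta globin, was at 1438 to 2578 CPM in the lens-positive libraries, against 3025 to 18190.0 CPM in the others. Endothelial genes were lower in 2 of 10, Erg and Emcn, beside 7.95% of all genes. Their list median of -0.68 was -0.35 among vehicle libraries alone.

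Bone genes did not separate the vehicle libraries. Osteoblast and bone matrix genes summed to 8537 to 22442 CPM in the 4 lens-positive vehicle libraries, against 8922 CPM in Runx2+/- vehicle replicate 3 and 15758 CPM in WT vehicle replicate 3. In MS-275 libraries the total was 3702 CPM in Runx2+/- MS-275 replicate 3, against 41050.0 to 83048 CPM in the 5 other MS-275 libraries. Col1a1, the main collagen of bone, was at 1104 CPM in Runx2+/- MS-275 replicate 3, 9948 and 3592 CPM in Runx2+/- vehicle replicates 1 and 2, and 6176 and 4820.3 CPM in WT vehicle replicates 1 and 2. Outside the lens-positive set it was at 3008 CPM in Runx2+/- vehicle replicate 3, 6379.5 CPM in WT vehicle replicate 3 and 7325 to 24987 CPM in the 5 other MS-275 libraries. Spp1, the bone matrix protein osteopontin, was at 134 CPM in Runx2+/- MS-275 replicate 3, 611 and 185 CPM in Runx2+/- vehicle replicates 1 and 2, and 322 and 279 CPM in WT vehicle replicates 1 and 2. Outside these 5 it was at 574 CPM in Runx2+/- vehicle replicate 3, 715 CPM in WT vehicle replicate 3 and 8670.1 to 19004 CPM in the 5 other MS-275 libraries. Of 18 genes 2 were lower within both treatments, Omd and Bglap2, beside 7.95% of all genes. The list's median of -1.19 with treatment adjusted was -0.14 among vehicle libraries alone. It was -1.93 when WT vehicle replicate 3 was left out and -2.08 when Runx2+/- vehicle replicate 3 was. Osteoclast genes overlapped among vehicle libraries too, at 117 to 599 CPM in the 4 lens-positive vehicle libraries, against 259 CPM in Runx2+/- vehicle replicate 3 and 568 CPM in WT vehicle replicate 3. The MS-275 libraries had 101 CPM in Runx2+/- MS-275 replicate 3, against 558 to 2404 CPM in the 5 other MS-275 libraries. Nfatc1, a factor that drives osteoclast formation, was the 1 of 11 that was lower, beside 7.95% of all genes.

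**Figure D4:**
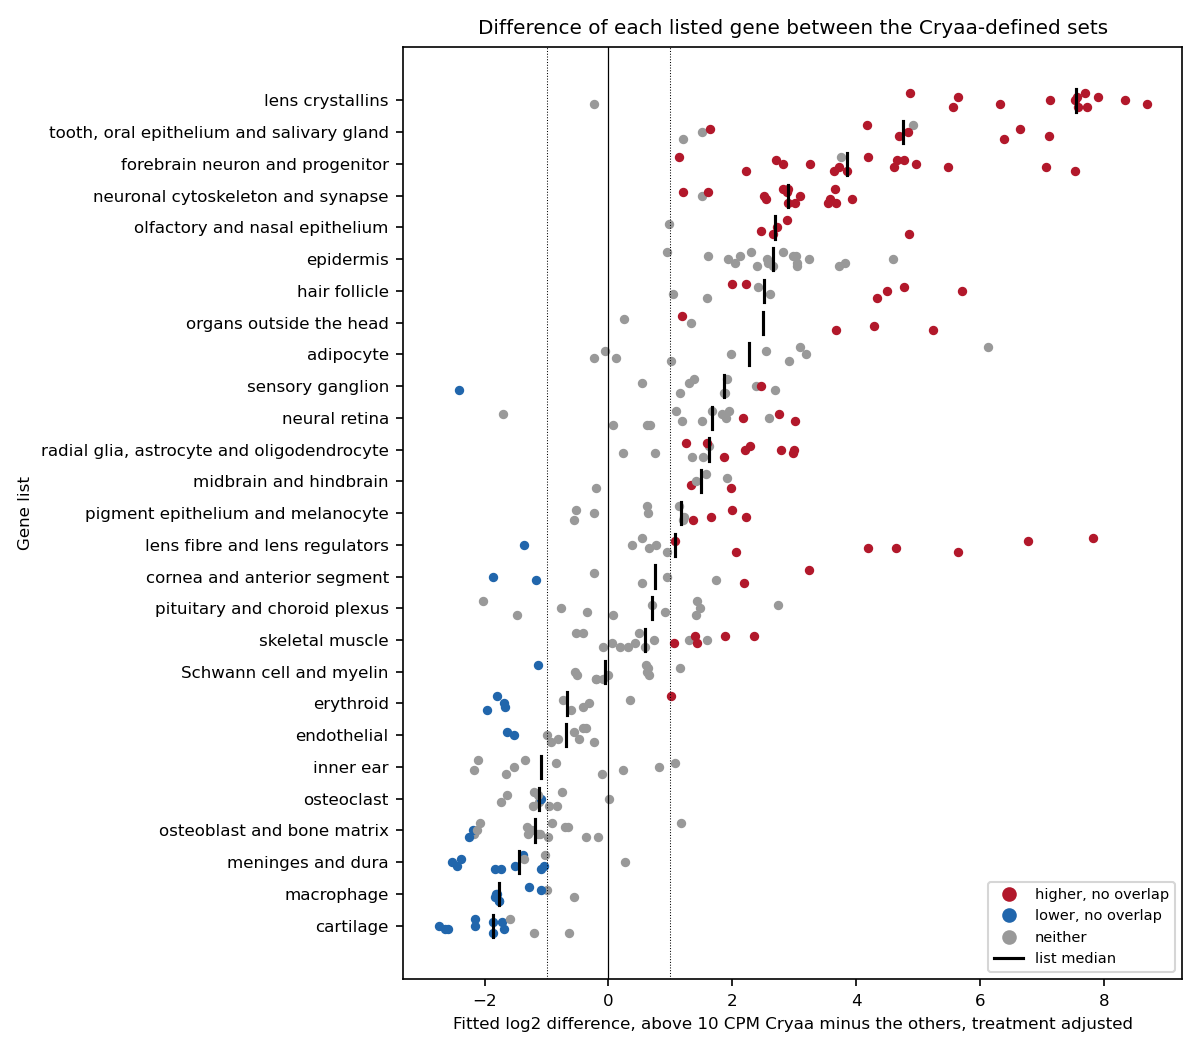
Fitted log2 difference of each listed gene, lens-positive libraries minus the others with treatment adjusted, by gene list. Red genes were higher and blue genes lower with no overlap within either treatment, grey genes neither, and black bars are list medians. Crystallins reach 8.68, forebrain genes spread from 1.14 to 7.53, and epidermal genes are grey throughout.

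Outside the lists, the genes with the largest differences included genes known from several of the same tissues. BC051076 (chr5:87963485-87966352, GRCm38) was at 7.39 CPM in Runx2+/- MS-275 replicate 3, 16.7 and 24.7 CPM in Runx2+/- vehicle replicates 1 and 2, and 12.4 and 9.68 CPM in WT vehicle replicates 1 and 2. Elsewhere it stood at 0 to 0.0509 CPM (median 0) in the 7 others, with counts in Runx2+/- vehicle replicate 3 alone among the 7. Fmo9, a flavin monooxygenase gene (chr1:166662055-166681845), was at 2.74 to 7.89 CPM in the lens-positive libraries and had no count in the other 7, so its mean was at least 23.8-fold higher than the mean level of 3 counts per library there. Idi2, an isomerase of isoprenoid synthesis, was at 27.7 to 44.8 CPM in the lens-positive libraries, against 0 to 0.278 CPM in the other 7. Rptn, the cornified envelope protein repetin, was at 42.3 to 78.2 CPM in the lens-positive libraries, against 0 to 1.14 CPM in the others, with 0.865 CPM in Runx2+/- vehicle replicate 3 and 1.14 CPM in WT vehicle replicate 3, where Krt1 reached 281 and 803 CPM. Grm5, a glutamate receptor of neurons, was at 17.9 to 71.3 CPM in the lens-positive libraries, against 0.0818 to 1.72 CPM in the other 7. Genes of ciliated and secretory surfaces also ranked here. Ccdc153, found in cells with motile cilia, was at 16.6 to 25.4 CPM in the lens-positive libraries, against 0 to 0.509 CPM in the others. Reg3g, a secreted antimicrobial lectin, was at 29.6 to 47.1 CPM in the lens-positive libraries, against 0 to 1.37 CPM in the other 7. Bpifb9a was at 8.45 to 32.6 CPM in the lens-positive libraries, against 0 to 0.713 CPM in the others, and Tmem212 at 6.35 to 9.66 CPM in the lens-positive libraries, against 0 to 0.255 CPM in the other 7. Rpl10a-ps2, a ribosomal pseudogene whose reads could come from its parent gene, was at 3.70 to 7.48 CPM in the lens-positive libraries, against 0 to 0.148 CPM in the others.

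At the other end, Rpl39l, a copy of a ribosomal protein gene (chr16:10170226-10174911), was at 1.61 CPM in Runx2+/- MS-275 replicate 3, 1.76 and 1.63 CPM in Runx2+/- vehicle replicates 1 and 2, and 2.07 and 1.15 CPM in WT vehicle replicates 1 and 2. Levels were 12.5 to 44.2 CPM (median 17.5) in the 7 other libraries, and the log2 difference was -3.37 (SE 0.37). Xlr, of a family of close copies on the X chromosome, was at 0.602 to 1.38 CPM in the lens-positive libraries, against 5.29 to 20.6 CPM in the other 7. Epyc, a proteoglycan of cartilage, was at 13.3 to 21.1 CPM in the lens-positive libraries, against 45.1 to 497 CPM in the others, and Wnt2, a secreted signalling protein, at 2.41 to 3.33 CPM in the lens-positive libraries, against 6.22 to 20.3 CPM in the other 7. Pf4, a chemokine of platelets and macrophages, was at 8.30 to 13.5 CPM in the lens-positive libraries, against 35.8 to 129 CPM in the others. Guca1a, known from photoreceptors, was lower, at 0.391 to 1.34 CPM in the lens-positive libraries, against 2.44 to 28.0 CPM in the other 7, although Six3, Lhx2 and Isl1 of the retina list were higher. Ranbp3l, Vnn1, Tfec and Nnmt completed the 10 lowest, with log2 differences of -2.42, -2.41, -2.38 and -2.37.

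Ratios to the lens signal were compared among the 5 lens-positive libraries. Relative to Cryaa, the levels of the other listed crystallins differed by 1.24-fold (Cryba4) to 2.32-fold (Crygf) between the highest and the lowest library, apart from Crybb2, near its floor, at 10.9-fold. Relative to the crystallin sum without Cryab, the lens fibre list, whose sum includes genes that other tissues express, differed by 1.23-fold, pigment genes by 1.62-fold and retina by 1.76-fold. The cornea and anterior segment list differed by 1.94-fold. Lists that did not separate the sets, or were lower, had spreads of like size, with 1.56-fold for pituitary and choroid plexus, 1.66-fold for endothelium, 1.67-fold for meninges, 1.77-fold for Schwann cells, 1.86-fold for macrophages and 1.90-fold for erythroid genes. A narrow ratio was thus not particular to eye tissues. Neuronal genes differed by 1.93-fold, nasal epithelium by 1.95-fold, forebrain by 2.65-fold and tooth and oral epithelium by 3.40-fold. Osteoblast genes varied 4.94-fold and organs outside the head 13.1-fold. These ratios are over 5 libraries with no test, and Runx2+/- MS-275 replicate 3 is one of them.

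The drug difference was fitted with MS-275 as a labelled term and the lens grouping as a second term. That fit takes the drug difference to be the same in both sets, so whether it depends on the lens grouping was not tested. By edgeR's quasi-likelihood test with Benjamini-Hochberg adjustment, 1130 of 17967 genes (6.29%) were higher and 1169 (6.51%) lower with MS-275 at an adjusted p under 0.05. Without the lens term the counts were 3879 higher (21.6%) and 2207 lower (12.3%). Of 18 osteoblast and bone matrix genes, none was higher with MS-275 by edgeR with the lens term (7 at an unadjusted p under 0.05, and 9 by DESeq2 and 5 by limma-voom after adjustment), and 13 were higher without it. Of 9 macrophage genes, none was higher with the term by edgeR (5 at an unadjusted p under 0.05, and 4 by DESeq2 and 3 by limma-voom after adjustment), and 8 were higher without it. Of 12 cartilage genes, none was higher with the term by edgeR (1 at an unadjusted p under 0.05, and 2 by DESeq2 and 1 by limma-voom after adjustment), and 7 were higher without it. Whether the counts differ beyond their error was not tested. The drug term depended on single libraries. With the lens term, no gene passed in either direction once WT vehicle replicate 3 was left out (3657 genes at an unadjusted p under 0.05), or once Runx2+/- vehicle replicate 3 was (4269 genes). Without Runx2+/- MS-275 replicate 3, 3641 were higher (20%) and 3050 lower (16.7%), and 16 of the 18 osteoblast genes were higher. No MS-275 library is then lens-positive, so that drug term compares 5 MS-275 libraries with 2 vehicle libraries, replicate 3 of each genotype.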

How the data were processed

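The deposited values are whole-number read counts per gene in 12 libraries, not normalized. Per the submitters' processing notes, Trimmomatic, Bowtie2, SAMtools and HTSeq made these counts, and the noted build is the human GRCh38.p7 although the identifiers are mouse Ensembl IDs. Tool versions and the strand setting are not given in the sources used here, so reads of antisense, overlapping or near-identical genes cannot be told apart. The 5 summary entries of each file were left out of totals: no-feature reads were 5.21% to 22.2% and ambiguous reads 3.25% to 4.78% of uniquely aligned reads. Of 39179 identifiers, 37607 had a symbol, and the 1572 without one held 0.217% of counts. Coordinates are GRCm38.

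Libraries were set apart by Cryaa above 10 CPM of the total count in genes. Counts were scaled by TMM, and 17967 genes that passed filterByExpr over the 4 labelled groups were fitted in edgeR 4.0.16 (R 4.3.3) with the Cryaa grouping and treatment as terms, with 9 residual degrees of freedom and a common biological coefficient of variation of 0.295. The grouping was described by its log2 coefficient and SE, and a gene was called when that coefficient passed 1 in size and the libraries did not overlap within either treatment. The treatment term was tested by the quasi-likelihood test with Benjamini-Hochberg adjustment at 0.05. As nothing says that replicates were separate embryos, p-values measure the spread among these libraries. The method was tested on simulated counts drawn independently for each gene, with less variation than the 0.295 found here. That test does not cover tissues whose genes vary together between libraries. A floor of 3 counts was 0.120 to 0.278 CPM, and floors cover counting error only.

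The members, the 27 gene lists (354 genes, 352 found by symbol) and the rules were chosen with earlier results of these data known. Named genes were list members, the 4 with the highest means first, and outside the lists the 10 largest and 10 smallest differences among called genes averaging at least 5 CPM in the higher set, leaving out symbols of the Gm and Rik kind. Alternatives were other scalings, no filter, DESeq2 1.42.0, limma-voom (limma 3.58.1), a genotype term, the replicate number, other Cryaa thresholds, no Cryaa term, vehicle libraries only, and each library left out. Figures were drawn with matplotlib 3.10.9.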

Additional observations from a re-analysis of the deposited data

Results flagged for a closer look

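Among the 5 lens-positive libraries, the forebrain list summed to 303 CPM in Runx2+/- vehicle replicate 1, against 603 to 771 CPM in the other 4. On the log2 scale its gap to the nearest of them was 0.736 of their whole range, above Dixon's 95% critical value of 0.71 for 5 samples. On the CPM scale the share was 0.64, below that value. Each of the 27 gene lists was screened in both sets of libraries, and this was the only result flagged. Chance alone sets apart about 1 in 20 such groups.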

How the results depend on the processing

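The rule's counts were 2598 genes higher and 1428 lower in the lens-positive libraries, and 1130 higher and 1169 lower with MS-275. Scaled by library size only, they were 3919 and 570 for the lens grouping and 319 and 4925 for MS-275. With Cryaa above 1 CPM as the threshold, which sets all 6 vehicle libraries and Runx2+/- MS-275 replicate 3 against the 5 other MS-275 libraries, they were 4565 and 3616, and 0 and 0 with MS-275 by edgeR (1718 genes at an unadjusted p under 0.05). With MS-275, 662 were higher with no filter, 1773 higher by limma-voom, 2703 higher and 2048 lower by DESeq2, and 3879 higher and 2207 lower with no Cryaa term. The crystallin median of 7.55 with Cryaa was 7.53 without it (chosen after seeing the data), 7.94 with library size only, 8.12 with Cryaa above 1 CPM and 6.77 among vehicle libraries. The forebrain median of 3.85 was 5.01 by limma-voom and 4.74 with the replicate block. The epidermis median of 2.65 was 6.19 with Cryaa above 1 CPM and 0.066 among vehicle libraries, and the osteoblast median of -1.19 was -4.14 and -0.14 there. The adipocyte median of 2.26 over 10 genes turned to -0.50 among vehicle libraries, where 7 of those genes were fitted. The causes were not tested. With each library left out in turn, 2590 to 3301 genes were higher and 1038 to 1934 lower, 0 to 3641 higher and 0 to 3050 lower with MS-275, and medians ran from 6.77 to 7.90 for crystallins, 3.73 to 4.63 for forebrain, 0.074 to 3.49 for epidermis and -2.08 to -0.13 for osteoblast. Between libraries of different groups, 5 of 18 same-number correlations passed 0.1, against 18 of 36 between different numbers. All 3 same-number pairs of vehicle libraries passed it, at 0.16, 0.81 and 0.84 for replicates 1, 2 and 3. These counts cannot tell whether replicate numbers pair the samples. Among vehicle libraries the number coincides with the Cryaa grouping, so no block could be fitted among them alone. The block over all 12 gave 2654, 1618, 1045 and 1375 in the order of the first sentence. Cryaa above 50 CPM gave the same sets. Levels near 0.120 to 0.278 CPM, the floor of 3 counts, limit statements on scarce genes such as Foxe3.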
